A study of Mus musculus with 9 samples.

Results

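The primary granule genes of granulocyte precursors were taken as Mpo, Elane, Prtn3, Ctsg, Fcnb, Ms4a3 and Gfi1. Every probe set whose platform gene symbol was exactly one of these names was used, which gave 7 probe sets, 1 for each of 7 genes among 18193 genes measured, of the 45037 tested. The 5 splenic lymphomas of mice with the Sca1-MALT1 transgene were compared with 4 spleens of healthy wild-type mice. RNA of frozen spleen tissue was hybridised to 1-colour Affymetrix mouse arrays, 1 array for each sample, and the values are log2 levels from RMA, which normalizes arrays against each other and compresses differences near the background. The transgene's name gives Sca1, a gene of blood stem and progenitor cells, as its driver and the oncogene MALT1 as its product. The sources used here give no age, sex or strain of the mice. The labels number the samples without naming separate animals, so that the p-values rest on the spread of these arrays alone, and the small number of arrays limits every value.

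Neutrophils are built in steps. At the promyelocyte stage the precursor fills its primary (azurophil) granules with myeloperoxidase and with serine proteases that kill microbes and cut matrix proteins. Transcription of these genes stops as the cell goes on to make specific granules and then the proteins of the mature neutrophil, so their mRNA marks the early stage. In adult mice this takes place mainly in bone marrow, and the mouse spleen keeps some blood-forming capacity that can expand under stress. The comparison asks whether RNA of this early stage was higher in the lymphomas.

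All 7 genes had higher mean levels in lymphoma than in wild-type spleen, as did 47.2% of all probe sets, by log2 differences of 0.23 (Gfi1) to 2.58 (Mpo), with a median of 1.44. None of them passed the test: limma called 0 of 7 at a Benjamini-Hochberg adjusted p under 0.05, where it called 0.486% of all probe sets (0.251% higher), and 1 of 7 (Mpo) at an unadjusted p under 0.05, where 5.15% of all probe sets were higher. Lymphoma 1 held the highest level of all 9 arrays for every one of the 7 genes, as it did for 18.4% of all genes, and lymphoma 4 lay near the wild-type spleens. Without lymphoma 1 the median difference was 0.60. A tissue array cannot tell more cells of a type apart from more RNA in each cell.

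**Figure D1:**
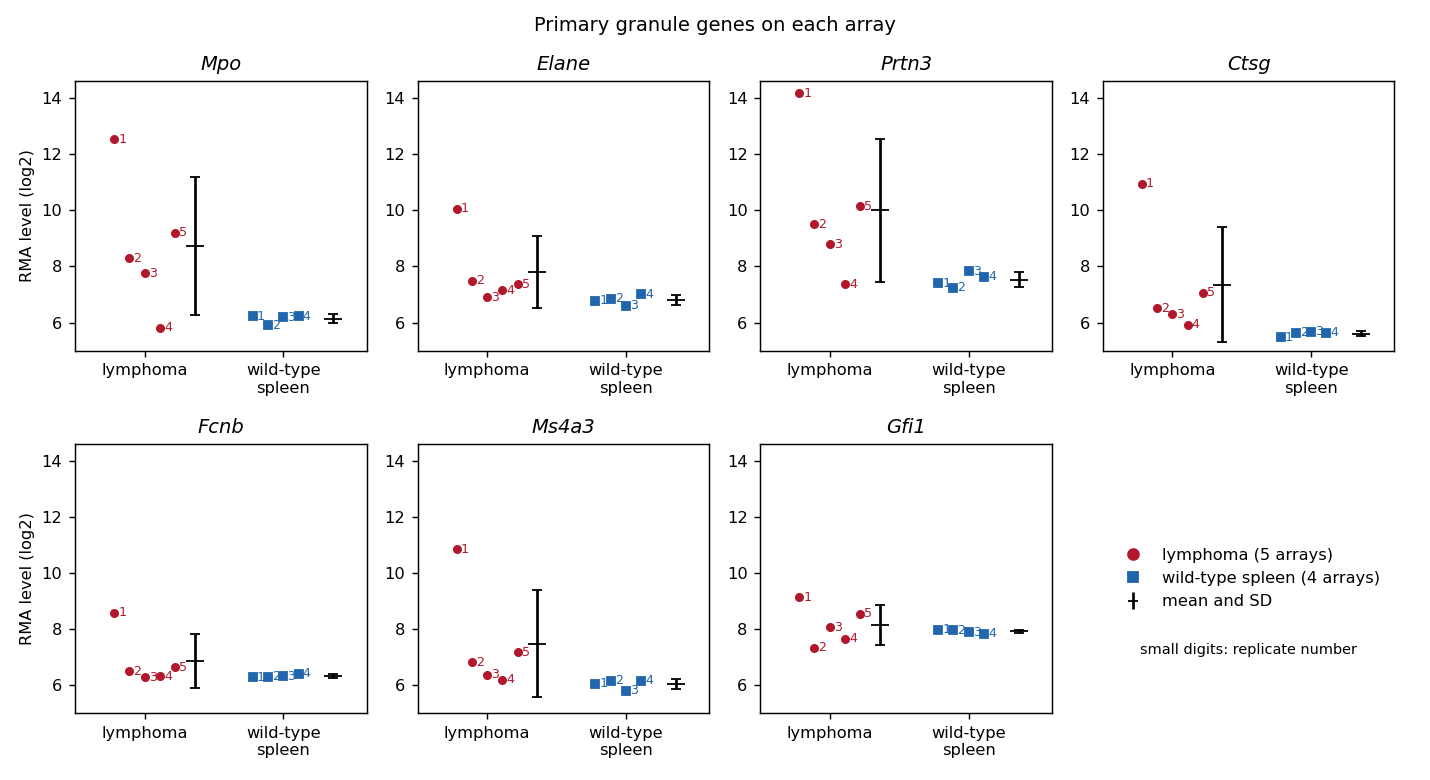
The RMA log2 level of each of the 7 genes on each array (vertical axis), with the 5 lymphomas as red circles, the 4 wild-type spleens as blue squares, replicate numbers as small digits, and the mean and SD of each group in black. Lymphoma 1 is the highest point in all 7 panels, and the wild-type spleens form a tight cluster in each.

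Mpo encodes myeloperoxidase, the enzyme that turns hydrogen peroxide and chloride into hypochlorous acid. Its log2 levels were 12.53, 8.30, 7.76, 5.82 and 9.20 in lymphomas 1 to 5, against 6.23, 5.91, 6.19 and 6.23 in wild-type spleens 1 to 4. Lymphomas 1, 2, 3 and 5 stood above every wild-type spleen, and lymphoma 4 stood below them all, so the groups overlapped. The means were 8.72 ± 2.46 in lymphoma (SD, n = 5) and 6.14 ± 0.16 in wild-type spleen (SD, n = 4). The log2 difference was 2.58, or 5.98-fold, with a 95% interval of 0.20 to 4.96 and a limma adjusted p of 0.319 (unadjusted 0.0366).

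Prtn3, Elane and Ctsg encode the neutrophil serine proteases proteinase 3, neutrophil elastase and cathepsin G. Prtn3 levels were 14.16, 9.51, 8.79, 7.37 and 10.13 in lymphomas 1 to 5, against 7.41, 7.25, 7.84 and 7.63 in wild-type spleens 1 to 4. As with Mpo, 4 lymphomas lay above all wild-type spleens, and lymphoma 4 lay within their range. The log2 difference was 2.46 (95% interval -0.008 to 4.94, limma adjusted p 0.36), with means of 9.99 ± 2.55 in lymphoma (SD, n = 5) and 7.53 ± 0.26 in wild-type spleen (SD, n = 4).

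Elane levels were 10.06, 7.50, 6.90, 7.15 and 7.37 in lymphomas 1 to 5, against 6.78, 6.85, 6.60 and 7.01 in wild-type spleens 1 to 4. Here lymphoma 3, not lymphoma 4, was the one inside the wild-type range, and lymphoma 4 cleared the highest wild-type spleen by 0.132. The log2 difference was 0.98 (95% interval -0.27 to 2.24, limma adjusted p 0.478).

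Ctsg levels were 10.94, 6.52, 6.30, 5.92 and 7.07 in lymphomas 1 to 5, against 5.47, 5.64, 5.68 and 5.64 in wild-type spleens 1 to 4. All 5 lymphomas stood above all 4 wild-type spleens. That was so for 2 of the 7 genes, Ctsg and Ms4a3, against 2.39% of all probe sets. The log2 difference of Ctsg was 1.74 (95% interval -0.24 to 3.72, limma adjusted p 0.423), with an SD of 2.05 among lymphomas and of 0.093 among wild-type spleens.

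Prtn3 and Elane are neighbours on chromosome 10 (GRCm38.p6): Prtn3 lies at chr10:79879667-79883174 and Elane at chr10:79886312-79888216, with 3137 bases between them. The nearest measured genes on either side stood closer to wild-type. Plppr3, on the Prtn3 side, differed by 0.22 and Med16, beyond Elane, by 0.11 on the log2 scale (limma adjusted p 0.3 and 0.629), and in lymphoma 1 they stood 0.43 and 0.073 above the wild-type mean, against 6.63 for Prtn3 and 3.25 for Elane. RNA of these proteases and of Mpo was highest in lymphoma 1, as was that of all 7 genes. The start regions of the proteases and of Mpo are shown as examples, and those of Fcnb, Ms4a3 and Gfi1 are not. The regions run 5′ to 3′ from 250 bases before to 50 bases after the RefSeq start (GRCm38.p6). Capitals mark GGAAGT or its reverse complement, a core bound by ETS factors such as PU.1, a regulator of myeloid genes. Each region shown holds this core.
Prtn3 (chr10:79879417-79879716, plus strand): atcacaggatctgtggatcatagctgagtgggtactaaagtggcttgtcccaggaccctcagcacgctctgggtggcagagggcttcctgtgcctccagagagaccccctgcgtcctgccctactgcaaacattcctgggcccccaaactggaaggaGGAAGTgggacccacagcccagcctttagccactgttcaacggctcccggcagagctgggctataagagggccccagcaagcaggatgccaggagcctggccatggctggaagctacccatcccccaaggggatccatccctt
Elane (chr10:79886062-79886361, plus strand): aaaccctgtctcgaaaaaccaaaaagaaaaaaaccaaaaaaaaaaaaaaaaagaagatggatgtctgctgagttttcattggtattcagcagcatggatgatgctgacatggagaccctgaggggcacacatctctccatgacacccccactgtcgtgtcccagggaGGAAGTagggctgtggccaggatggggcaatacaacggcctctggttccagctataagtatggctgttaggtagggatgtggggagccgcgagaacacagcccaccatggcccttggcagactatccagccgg
Ctsg (chr14:56102525-56102824, minus strand): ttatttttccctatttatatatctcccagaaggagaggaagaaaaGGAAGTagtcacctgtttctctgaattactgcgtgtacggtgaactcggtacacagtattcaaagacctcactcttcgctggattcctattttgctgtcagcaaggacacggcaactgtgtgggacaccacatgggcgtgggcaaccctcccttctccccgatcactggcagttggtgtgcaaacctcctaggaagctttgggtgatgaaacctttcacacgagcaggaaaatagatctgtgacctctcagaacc
Mpo (chr11:87793534-87793833, plus strand): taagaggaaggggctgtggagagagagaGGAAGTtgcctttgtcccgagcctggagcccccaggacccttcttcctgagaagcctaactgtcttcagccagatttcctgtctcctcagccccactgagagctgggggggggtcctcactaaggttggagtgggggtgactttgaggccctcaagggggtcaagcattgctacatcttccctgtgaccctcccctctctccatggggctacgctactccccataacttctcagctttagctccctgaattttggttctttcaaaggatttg

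The GGAAGT core occurred in the windows of 6 of the 7 genes (all but Gfi1), against 23.8% of 32851 windows of the same length, searched on both strands. Gfi1 had 2 windows and the other genes 1 each, so 6 of 8 windows held the core. Counts by gene take a match in any window of the gene, while the shares over all are by window. In Prtn3 and Elane it began at positions -93 and -83 from the start. Both windows also held CAACNG, a core bound by MYB, at -56 and -51, and TATAA on the coding strand at -32 and -31. CAACNG was found for 4 of the 7 genes (Elane, Prtn3, Ctsg and Fcnb) and in 35% of all windows, and TATAA for 3 (Elane, Prtn3 and Fcnb) and in 17.5%. The RUNX core TGNGGT was found for 2 genes (45.8% of all windows), and the C/EBP form TTGCNNAA for 3 (10.8%). GGAAGT was picked after the windows had been read, and a match is only a match of letters.

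Ms4a3 encodes a membrane protein of the MS4A family that marks granulocyte and monocyte progenitors. Its log2 levels were 10.85, 6.83, 6.38, 6.20 and 7.18 in lymphomas 1 to 5, against 6.05, 6.17, 5.81 and 6.16 in wild-type spleens 1 to 4. The groups did not overlap, but lymphoma 4 cleared the highest wild-type spleen by only 0.029. The log2 difference was 1.44 (95% interval -0.42 to 3.30, limma adjusted p 0.482).

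Fcnb encodes ficolin B, a lectin of the complement system made by myeloid cells. Its levels were 8.58, 6.51, 6.29, 6.33 and 6.65 in lymphomas 1 to 5, against 6.29, 6.30, 6.32 and 6.42 in wild-type spleens 1 to 4. Lymphomas 3 and 4 lay within the wild-type range, and lymphomas 2 and 5 exceeded it by 0.087 and 0.232. The log2 difference was 0.54 (95% interval -0.40 to 1.48, limma adjusted p 0.612), and without lymphoma 1 it was 0.11.

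Gfi1 encodes a repressor that steers progenitors to the granulocyte fate and is also used by lymphoid and stem cells. Its levels were 9.14, 7.33, 8.07, 7.66 and 8.54 in lymphomas 1 to 5, against 7.98, 7.96, 7.90 and 7.83 in wild-type spleens 1 to 4. Lymphomas 1, 3 and 5 lay above the wild-type spleens and lymphomas 2 and 4 below them. The log2 difference was 0.23 (95% interval -0.47 to 0.94, limma adjusted p 0.793). It was -0.014 without lymphoma 1, 0.44 without lymphoma 2, 0.36 without lymphoma 4 and 0.14 without lymphoma 5. The T-cell genes, which belong to another cell type that uses Gfi1, had a mean level 1.23 and 1.25 below the wild-type mean in lymphomas 1 and 2, and between 0.13 below and 0.08 above it in lymphomas 3 to 5, and their part in the Gfi1 values was not tested.

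**Figure D2:**
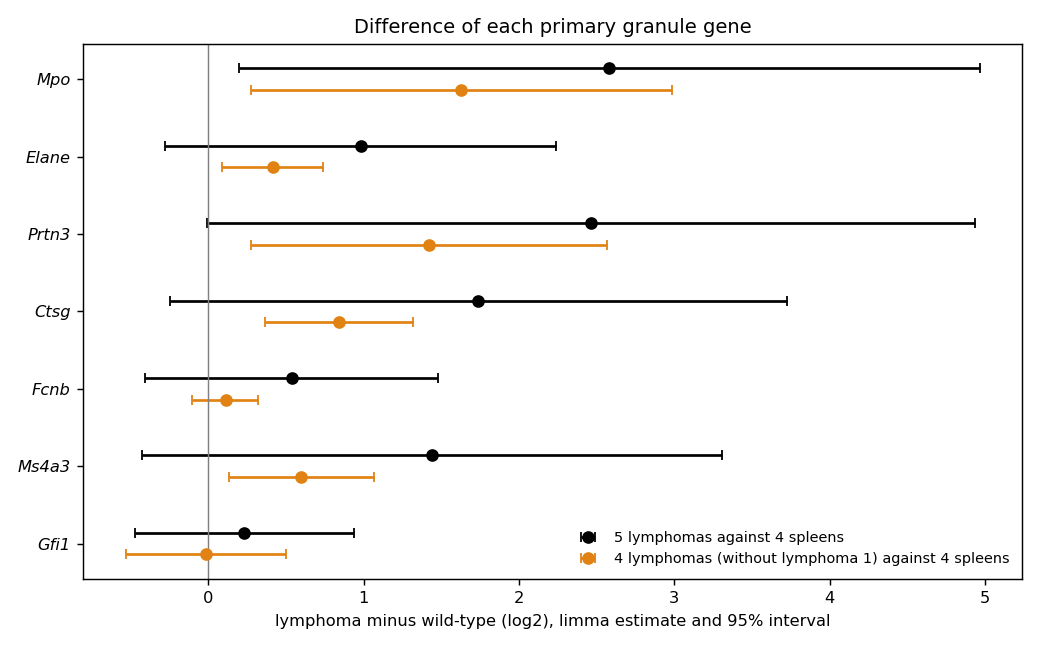
The limma estimate of lymphoma minus wild-type (horizontal axis, log2) with its 95% interval for each gene, over all arrays in black and without lymphoma 1 in orange. The estimates shrink without lymphoma 1 and the intervals narrow, and that of Gfi1 moves to -0.014.

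Leaving out lymphoma 1 lowered each estimate and also narrowed its interval. The log2 differences were then 1.63 for Mpo (95% interval 0.28 to 2.98), 1.42 for Prtn3 (0.28 to 2.57), 0.84 for Ctsg (0.37 to 1.32), 0.60 for Ms4a3 (0.13 to 1.07) and 0.42 for Elane (0.092 to 0.74). These 5 of the 7 genes had an unadjusted limma p under 0.05 in that fit, between 0.00317 (Ctsg) and 0.0235 (Mpo). Over all probe sets 5896 of 45037 were under that threshold there, in either direction. None of the 7 had an adjusted p under 0.05, the lowest being 0.141 for Ctsg. Lymphoma 1 was the highest array for all 7 genes, so leaving it out was bound to lower every estimate. Fcnb and Gfi1 had unadjusted p-values of 0.263 and 0.951.

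The lymphomas varied more among themselves than the wild-type spleens did. The SD among lymphomas was 7.48 (Elane) to 22.1 (Ctsg) times that among wild-type spleens, and it was at least 1 log2 unit for 5 of the 7 genes, against 1.74% of all probe sets. In wild-type spleens 4 or 5 of the 7 genes lay below the median of all probe sets of their array, the range in which RMA compresses differences.

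In lymphoma 1 the levels stood above the wild-type mean 99.2-fold for Prtn3, 83.7-fold for Mpo, 40.1-fold for Ctsg, 27.9-fold for Ms4a3, 9.51-fold for Elane, 4.75-fold for Fcnb and 2.34-fold for Gfi1. These are ratios of RMA values, and those of genes with wild-type levels in the compressed range may understate the difference in RNA. Ranked by this excess among the 45037 probe sets of the array, Prtn3 was in place 8, Mpo in place 14, Ctsg in place 31 and Ms4a3 in place 46. All 7 genes exceeded every wild-type spleen there, against 27% of all probe sets, and all 7 were at least 2-fold above the wild-type mean, against 4.11%.

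Lymphoma 5 was the second highest for 6 of the 7 genes, the exception being Elane, for which it was lymphoma 2. It exceeded every wild-type spleen for all 7 genes, against 28.7% of all probe sets, and stood above the wild-type mean 8.34-fold for Mpo, 6.08-fold for Prtn3, 2.75-fold for Ctsg and 2.20-fold for Ms4a3. These 4 were the genes at least 2-fold above the wild-type mean in lymphoma 5, against 1.16% of all probe sets, and Mpo was in place 29 by excess on that array.

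In lymphoma 2, 6 of the 7 genes exceeded every wild-type spleen (26.5% of all probe sets did), and in lymphoma 3, 5 of 7 (21.3%). Mpo and Prtn3 were the genes at least 2-fold above the wild-type mean in both, at 4.46-fold and 3.93-fold in lymphoma 2 and 3.06-fold and 2.40-fold in lymphoma 3, against 2.77% and 0.99% of all probe sets. In lymphoma 4, 3 of 7 genes exceeded every wild-type spleen (28% of all probe sets), and 0 were 2-fold above the mean (0.724%). Over the 7 genes the mean excess was 4.27, 0.87, 0.59, 0.009 and 1.40 log2 units in lymphomas 1 to 5.

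**Figure D3:**
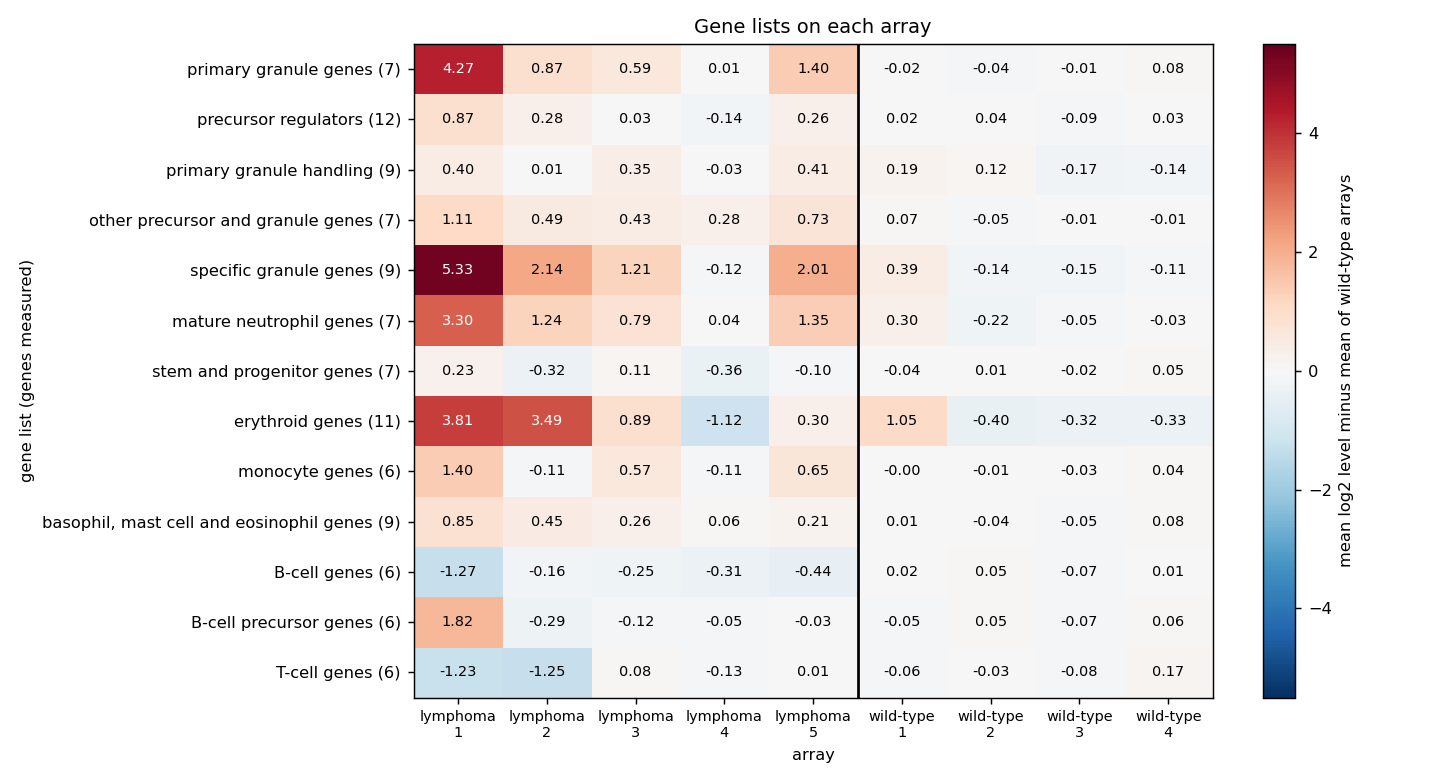
The mean log2 level of each gene list minus its mean over the wild-type arrays (colour and printed value), with arrays in columns and lists in rows and the number of measured genes in brackets. Lymphoma 1 is the highest array in 10 of the 13 rows, those of the neutrophil stages included, and the erythroid row is high in both lymphomas 1 and 2.

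Gene lists of the later neutrophil stages had the same highest lymphoma (1), as had 10 of all 13 lists, and the same lowest lymphoma (4). The 9 specific granule genes all had positive differences with a median of 2.51, against a median of 0.001 over all 18193 genes. Limma called 0 of them (0.407% of all genes were called higher and 0.308% lower), and 5 were higher at an unadjusted p under 0.05 (6.69% of all genes). Chil3, a chitinase-like lectin, stood at 12.81, 9.68, 8.22, 5.70 and 9.09 in lymphomas 1 to 5, against 7.02, 5.54, 5.69 and 5.07 in wild-type spleens 1 to 4 (difference 3.27, limma adjusted p 0.242). Lcn2, which withholds iron from bacteria, differed by 3.15 (limma adjusted p 0.268). The 7 measured mature neutrophil genes had a median difference of 0.55, with 0 called and 2 higher at an unadjusted p under 0.05, S100a9 (3.41) and S100a8 (3.04), subunits of calprotectin.

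The order of the lymphomas differed from that of the primary granule genes for the specific granule list, but not for the mature neutrophil list. The mature neutrophil list exceeded its wild-type mean by 3.30, 1.24, 0.79, 0.042 and 1.35 log2 units in lymphomas 1 to 5. The specific granule list exceeded its wild-type mean by 5.33, 2.14, 1.21, -0.12 and 2.01 log2 units in lymphomas 1 to 5, so lymphoma 2 was no lower than lymphoma 5 there, whereas the primary granule genes stood at 0.87 in lymphoma 2 and 1.40 in lymphoma 5. Wild-type spleen 1 was 0.39 above the wild-type mean for the specific granule list and 0.30 for the mature neutrophil list, and at -0.024 for the primary granule genes.

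Of 12 measured genes that control granulocyte precursors limma called 0, and at an unadjusted p under 0.05 there were 4 with higher and 1 with lower levels in lymphoma (6.69% of all genes were higher and 8% lower at that threshold), with a median difference of 0.32. The list stood 0.87 above the wild-type mean in lymphoma 1 and 0.14 below it in lymphoma 4. Of the 12 genes 7 were highest of all arrays in lymphoma 1, against 18.4% of all genes. Csf2rb, which encodes a receptor chain for GM-CSF, differed by 0.59 (limma adjusted p 0.202), and by 0.77 (limma adjusted p 0.0115) without lymphoma 4. Lymphoma 4 had the lowest Csf2rb level of all arrays, at 10.88, against 11.62 to 11.90 in the other lymphomas. Leaving it out was bound to raise the estimate, and in that fit 200 of 45037 probe sets were called. The largest differences were those of the C/EBP factor genes Cebpd (0.98, limma adjusted p 0.198) and Cebpb (0.88, 0.241), which act in later granulocytes and in inflammation. Spi1, which encodes PU.1, stood at 0.19. Of the 12 genes 7 had positive differences. Those below 0 were Runx1 (-0.46), Irf8 (-0.32, limma unadjusted p 0.0236), Myb (-0.31), Cbfb (-0.21) and Cebpa (-0.042). Myb, a factor of immature cells, had levels of 11.65, 10.02, 9.25, 8.65 and 8.99 in lymphomas 1 to 5, against 9.88 to 10.14 in wild-type spleens. Lymphoma 1 was above, lymphoma 2 inside and lymphomas 3 to 5 below the wild-type range. Csf2rb, Spi1 and the genes with differences below 0 were named after their values had been seen.

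Genes that process and pack the granule proteases gave 0 calls among 9 and a median difference of 0.070. At an unadjusted p under 0.05, 1 was higher (6.69% of all genes were). Ctsc, the dipeptidyl peptidase that activates elastase, proteinase 3 and cathepsin G, stood at 13.56, 13.91, 13.77, 13.83 and 13.70 in lymphomas 1 to 5, against 13.47, 13.51, 13.12 and 13.15 in wild-type spleens 1 to 4. All lymphomas were above all wild-type spleens, by a difference of 0.44 (limma adjusted p 0.117), and lymphoma 1 was the lowest of the 5. Slpi, an inhibitor of elastase and cathepsin G, stood at 14.43, 9.79, 12.46, 9.54 and 13.33 in lymphomas 1 to 5, against 11.34, 10.25, 9.28 and 9.33 in wild-type spleens 1 to 4 (difference 1.86, limma adjusted p 0.438).

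Of 7 other precursor and granule genes 0 were called, with a median difference of 0.24. At an unadjusted p under 0.05, 3 were higher (6.69% of all genes were). Hp, which encodes haptoglobin, stood at 13.27, 8.96, 8.13, 7.60 and 10.38 in lymphomas 1 to 5, against 7.18, 6.70, 6.87 and 6.93 in wild-type spleens 1 to 4 (difference 2.75, limma adjusted p 0.249). Cst7, a cystatin also made by cytotoxic lymphocytes, differed by 0.99 (limma adjusted p 0.0625), with lymphomas 1 and 2 the lowest of the 5.

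Genes of other blood lineages were also high in lymphoma 1, and their part in its primary granule values was not tested. The 11 measured erythroid genes, among them Rhag (2.36) and Alas2 (2.13), had mean levels of 6.69 to 11.62 in lymphoma and 7.41 to 8.86 in wild-type spleen, with 0 called, 0 at an unadjusted p under 0.05 and a median difference of 1.62. Their excess over the wild-type mean was 3.81, 3.49, 0.89, -1.12 and 0.30 in lymphomas 1 to 5, and wild-type spleen 1 stood 1.05 above that mean. The 6 B-cell precursor genes exceeded the wild-type mean by 1.82 in lymphoma 1 and lay 0.03 to 0.30 below it in the other lymphomas, with Vpreb1 at 10.05 and Rag1 at 7.86 in lymphoma 1, against at most 5.86 and 3.83 in wild-type spleens. Limma called 0 of the 6, 0 of them were at an unadjusted p under 0.05, and their median difference was 0.16.

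Of 7 stem and progenitor genes limma called 0, and 1 was lower at an unadjusted p under 0.05 (8% of all genes were). The median difference was -0.081, with Mecom at -0.40 and Kit at -0.31. Mean levels of the list were 7.92 (lymphoma 4) to 8.51 (lymphoma 1) in lymphoma and 8.25 to 8.33 in wild-type spleen. Of the 7 genes 4 were highest of all arrays in lymphoma 1, against 18.4% of all genes. The list stood 0.23 above the wild-type mean in lymphoma 1 and lay between 0.36 below and 0.11 above it in the other lymphomas.

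Monocyte genes (0 of 6 called, 1 higher at an unadjusted p under 0.05, median 0.41) included F13a1 at 1.35 and Cx3cr1 at 0.78. The list had mean levels of 8.84 to 10.35 in lymphoma and 8.92 to 8.99 in wild-type spleen. Of 9 basophil, mast cell and eosinophil genes 0 were called and 1 was higher at an unadjusted p under 0.05. At that threshold 6.69% of all genes were higher. Mean levels of these 9 were 5.92 to 6.71 in lymphoma and 5.81 to 5.95 in wild-type spleen, with a median difference of 0.29. Prg2, the eosinophil major basic protein gene, stood at 0.98 and the histidine decarboxylase gene Hdc at 0.46, while the eosinophil peroxidase gene Epx lay between 4.795 and 5.18 in lymphoma and between 4.91 and 4.94 in wild-type spleen.

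B-cell genes marked both groups as lymphoid tissue. The 6 measured genes had mean levels of 11.27 to 12.38 in lymphoma and 12.46 to 12.59 in wild-type spleen, with lymphoma 1 the lowest. Limma called 0 of them, 3 were lower at an unadjusted p under 0.05 (8% of all genes were), and the median difference was -0.43. The largest differences were those of Cr2 (-1.25, limma adjusted p 0.113) and Cd22 (-0.52, 0.268). Without lymphoma 1, which had the lowest Cr2 level, Cr2 differed by -0.94 (limma adjusted p 0.0107). In that fit 199 of 45037 probe sets were called. The 6 T-cell genes had mean levels of 9.04 to 10.37 in lymphoma and 10.21 to 10.46 in wild-type spleen. Among them 0 were called, 1 was lower at an unadjusted p under 0.05 (8% of all genes were), and the median difference was -0.47. The 1 with a lower level was the CD8 chain gene Cd8a, at 8.30 to 10.20 in lymphoma and 10.08 to 10.38 in wild-type spleen, and the CD3 chain gene Cd3d stood at -0.75.

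**Figure D4:**
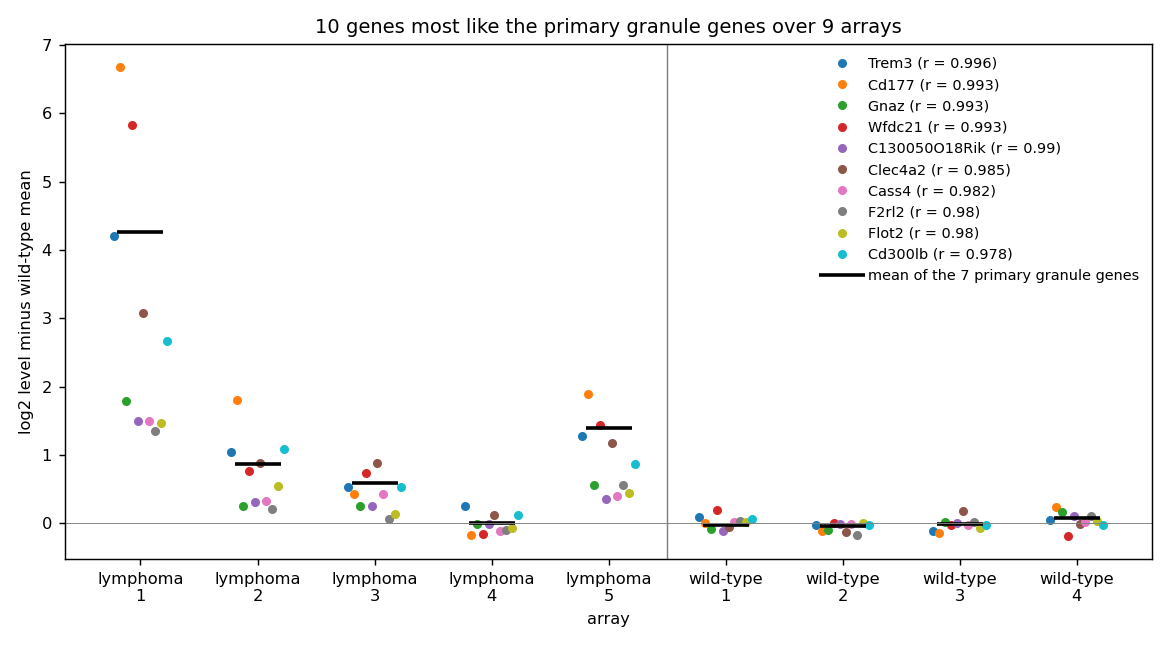
The log2 level minus the wild-type mean (vertical axis) on each array for the 10 genes whose pattern over 9 arrays was most like the mean of the 7 primary granule genes (black bars), with Pearson's r in the legend. The genes are high in lymphoma 1, lower in lymphomas 5, 2 and 3, and near 0 in lymphoma 4 and the wild-type spleens.

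The genes most like the primary granule genes were sought among 3731 other genes with a range of at least 1 log2 unit over the 9 arrays, by Pearson's r with the mean of the 7. The highest 10 were Trem3 (0.996), Cd177 (0.993), Gnaz (0.993), Wfdc21 (0.993), C130050O18Rik (0.99), Clec4a2 (0.985), Cass4 (0.982), F2rl2 (0.98), Flot2 (0.98) and Cd300lb (0.978). Trem3 stood at 10.80, 7.64, 7.13, 6.86 and 7.87 in lymphomas 1 to 5, against 6.69, 6.56, 6.48 and 6.64 in wild-type spleens 1 to 4. Lymphoma 1 is the extreme point of each r, and over the 8 arrays without it the 10 values lay between 0.883 (Cass4) and 0.967 (Trem3). The range filter and the ranking used all 9 arrays, and the genes were not sought again without lymphoma 1. Some pass the filter only through that array: C130050O18Rik stood at 7.96 there and ran from 6.35 to 6.81 on the other 8. Cd177, a neutrophil surface protein also in the specific granule list, had the largest excess of the 10 in lymphoma 1, at 6.67.

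Among the 7 genes themselves, r over the 9 arrays was 0.90 to 0.994 for the 15 pairs without Gfi1 and 0.729 to 0.809 for the 6 pairs with Gfi1. Without lymphoma 1 it was 0.686 to 0.991 for pairs without Gfi1 and -0.162 to 0.333 for pairs with Gfi1. These values describe arrays that share their tissue source and 2 groups, and they have no test.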

How the data were processed

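RNA of 5 splenic lymphomas and 4 wild-type spleens was measured on 1 array each. The authors deposited log2 values and made them with RMA, as the submitters' processing notes say, with no version or setting given. They ran from 2.88 to 15.42 and were used as deposited. Of 45101 probe sets 64 Affymetrix controls were left out and 45037 tested. Names came from the platform annotation, and for gene lists the probe set with the highest mean stood for each of 18193 genes. The 2-sided test of group means was that of limma 3.58.1 (lmFit and eBayes in R 4.3.3) without covariates or a filter on dim probe sets. P-values were adjusted by Benjamini and Hochberg over all features, with a threshold of 0.05, and the fit was tested on simulated data. The simulated data had the same spread in both groups, unlike the primary granule genes, so they do not check the fit for these. All differences are lymphoma minus wild-type. Members and lists were chosen with earlier results of these data known. In each list without a called gene the 2 largest differences are named. List genes with no probe set of their own under their symbol were not analysed here. Alternatives covered scaling, a dim filter, the prior, weights, the replicate number, other probe sets and arrays left out. Promoter windows are RefSeq sequence (GRCm38.p6). Figures used matplotlib 3.10.9.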

Additional observations from a re-analysis of the deposited data

Results flagged for a closer look

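Each gene's highest and lowest array was compared with its neighbours within each group by Dixon's ratio, the gap to the nearest array over the whole range, against its 95% critical value. Lymphoma 1 passed it as the highest lymphoma for Elane (0.81), Ctsg (0.771), Fcnb (0.843) and Ms4a3 (0.787), or 4 of the 7 genes, and wild-type spleen 2 as the lowest wild-type spleen for Mpo (0.866). Chance passes about 1 in 20 groups, and the genes share their arrays, so the 4 values of lymphoma 1 are not independent. No share over all probe sets is given for this ratio, so the 4 of 7 cannot be set against one. For Mpo, whose levels were spread more evenly, lymphoma 1 still lay 3.33 log2 units above the next lymphoma, and for Prtn3 4.03.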

How the results depend on the processing

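No primary granule gene was called under any alternative (0 of those tested each time; 4 of 7 passed the dim filter). The difference of Gfi1 turned to -0.014 without lymphoma 1, was positive in every other setting and reached 0.438 without lymphoma 2, and those of the other 6 genes were positive in all. The lowest adjusted p was 0.122, for Ctsg without lymphomas 1 and 2. The median difference was 1.44 with all arrays, 0.60 to 1.76 with 1 array left out and 0.54 without lymphomas 1 and 2. Of all probe sets 219 were called, and 821 with array weights, 481 with group weights, 935 without lymphomas 1 and 2, 5 with the replicate block and 0 to 530 with 1 array left out (0 without wild-type spleen 2 or 3, where 4191 and 4505 were at an unadjusted p under 0.05, 18 without wild-type spleen 1, 14 when wild-type spleen 4 was left out, and 48 and 530 when lymphoma 5 or 2 was). Those counts are of 45037 probe sets. The dim filter fit called 234 of 22518, and the fit without lymphomas 1 and 2 and wild-type spleen 1 called 277 of 45037. Of 93 genes in the other lists 0 were called with all arrays, and 1 of the 75 that passed the dim filter (Cst7). Of the 93, 3 were called with array weights, 2 with group weights and 5 without lymphomas 1 and 2 (Cr2 in each of these, at -1.01, -1.25 and -0.86). The count was 4 when wild-type spleen 1 was left out as well and 0 to 3 with 1 array left out. Same-numbered arrays of the groups correlated at -0.191 to 0.123 in their deviations, values too few to show or exclude a pairing. The block, over replicates 1 to 4, called 0 primary granule genes, with a median difference of 1.52. The causes of these shifts were not tested.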

Other observations

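In the other lists 3 of 93 genes, Mmp8, Cst7 and Cr2, passed limma's test once lymphoma 1 was left out. In that fit 199 of 45037 probe sets were called. These 3 genes, Prg2 and Myb were named after their values had been seen. Mmp8, the neutrophil collagenase gene, stood at 8.34 in lymphoma 1 and at 5.62, 5.64, 5.6 and 5.64 in lymphomas 2 to 5, against 4.81 to 5.19 in wild-type spleens. Its difference was 0.56 without lymphoma 1 (limma adjusted p 0.0397, and 0.38 with all arrays). Apart from lymphoma 1, these levels lay below the median of all probe sets of their array, the range in which RMA compresses differences. Cst7 differed by 1.09 without lymphoma 1 (limma adjusted p 0.0402) and Cr2, the complement receptor gene of B cells, by -0.94 (0.0107). Prg2, which was called in no setting, was highest in lymphoma 5, at 7.38, followed by 6.48 in lymphoma 1 and 6.36 in lymphoma 3, against 5.09 to 5.25 in wild-type spleens. Without lymphomas 1 and 2 Myb differed by -1.06 (limma adjusted p 0.00791, and 0.83 with all arrays). Those lymphomas had the highest Myb levels, 11.65 and 10.02, so leaving them out was bound to lower its estimate. In that fit 935 of all probe sets were called, against 219 with all arrays.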
